A study of Homo sapiens with 8 samples.

Results

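The genes described here are 10 regulators of the plasma cell and B cell programs, taken by name: IRF4, PRDM1, XBP1, IKZF1, IKZF3, CRBN, POU2AF1, BCL6, PAX5 and MEF2B. All 10 were among the 24351 genes of the table and all 10 passed the filter on low values that left 14905 genes for testing, PAX5 through one cell line alone. RNA was sequenced from ARP1 and H929, human lines of multiple myeloma, the malignancy of plasma cells. Each line gave 4 libraries, named by their labels: CHEK1 overexpression, the control of overexpression, CHEK1 knockdown, and the control of knockdown. CHEK1 encodes a kinase of the DNA damage checkpoint, and the construct and the time after its introduction are not described in the labels. A genotype therefore had 1 library in each line and the lines stood as its replicates (n = 2), and the table calls its values means without saying over how many runs. Each p-value reflects the spread among these libraries alone, which may be technical, and each line is a single model of the disease.

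IRF4, Blimp-1 (the product of PRDM1) and XBP1 are the factors that carry an activated B cell into antibody secretion. PAX5 and BCL6 hold the earlier B cell and germinal centre states, and Blimp-1 and BCL6 repress each other's genes. Ikaros and Aiolos, made from IKZF1 and IKZF3, sustain IRF4 in myeloma and are the proteins that lenalidomide-type drugs bring to the ubiquitin ligase adaptor cereblon, the product of CRBN.

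XBP1 is unusual in that its messenger RNA is cut in the cytoplasm. On stress of the endoplasmic reticulum the kinase and nuclease IRE1 (gene ERN1) removes 26 bases, which shifts the reading frame and gives the active factor. The stretch is shown because the deposited transcripts can be divided by it. It lies in the coding sequence on the minus strand of GRCh38, within chr22:28796092-28796177, and the capitals mark the removed bases at chr22:28796122-28796147. The letters alone allow 7 equal placements of the gap, and the one annotated by GENCODE was used.
XBP1 unspliced: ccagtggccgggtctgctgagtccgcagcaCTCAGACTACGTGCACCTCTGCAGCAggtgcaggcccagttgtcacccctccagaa
XBP1 spliced: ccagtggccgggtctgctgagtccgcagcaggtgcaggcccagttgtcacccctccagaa

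PRDM1 has 2 promoters, and its transcripts differ in where they start, so both starts are shown. MEF2B is shown because its level was highest in the libraries labelled knockdown. The windows are the 120 bases before RefSeq starts on GRCh38.p14, at chr6:106086216-106086335 (plus strand), chr6:106098821-106098940 (plus strand) and chr19:19170264-19170383 (minus strand). Capitals mark an E-box (CAGGTG), the core of XBP1 and ATF6 sites (CCACGT) and the octamer (ATGCAAAT) read by OCT factors with POU2AF1, on either strand.
PRDM1 upstream promoter: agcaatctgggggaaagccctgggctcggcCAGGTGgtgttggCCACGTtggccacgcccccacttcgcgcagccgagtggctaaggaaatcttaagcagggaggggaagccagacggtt
PRDM1 internal promoter: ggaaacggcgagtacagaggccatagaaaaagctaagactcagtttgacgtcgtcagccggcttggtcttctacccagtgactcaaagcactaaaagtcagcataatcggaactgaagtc
MEF2B promoter: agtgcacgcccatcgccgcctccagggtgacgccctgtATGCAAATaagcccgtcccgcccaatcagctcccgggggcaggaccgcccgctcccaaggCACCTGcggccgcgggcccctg

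The RefSeq table held 14 promoter windows for 8 of the 10 genes. In their 250 upstream bases, searched on both strands, the octamer was found in 1 window (MEF2B), against 1.63% of all 35116 windows. CCACGT was found in 3 windows (BCL6, PAX5 and the upstream PRDM1 promoter), against 8.37% of all. CAGGTG was found in 2 windows (MEF2B and the upstream PRDM1 promoter), against 17.5%. The core of the interferon-stimulated response element, the Blimp-1 core AGNGAAAG, which can overlap it, and the NF-kB consensus were found in none of the 14, against 3.02%, 6.57% and 0.179% of all windows. A match is a run of letters and says nothing of binding.

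Over the whole series, summed FPKM (fragments per kilobase of transcript and sequencing depth, so a level per length) was 631871 to 693299 per library, with no read depth in the labels or the table. CHEK1 itself stood at 78.2 and 114 FPKM in the ARP1 control and overexpression libraries, and at 81.6 and 107 FPKM in those of H929. The libraries labelled knockdown had 51.6 FPKM of CHEK1 in ARP1, where the control had 61.0, and 84.8 FPKM in H929, where the control had 80.7, so CHEK1 goes against the latter label. The ARP1 library labelled knockdown stood apart, with 1231 genes at least 2-fold from its control against 536 in H929. JCHAIN, the joining chain of secreted antibody, reached 3521 FPKM. Of the markers fixed for other cells, summed levels in ARP1 and H929 were 0.716 to 1.39 and 0.663 to 14.4 FPKM for T and NK cells (GNLY up to 14.2), 2.81 to 5.99 and 2.08 to 2.92 for myeloid cells, 1.67 to 5.58 and 7.29 to 17.2 for stroma and epithelium, and 0 to 1.95 and 0 to 0.108 for erythroid cells. CD3D, CD3G, NKG7, ITGAM, S100A8, S100A9, KRT19 and AHSP were listed at 0 throughout.

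Below, the 4 values of a line are given in the order control of overexpression, overexpression, control of knockdown and library labelled knockdown. The factors of secretion stood at the top. XBP1 (chr22:28794555-28800597, minus strand) was at 849, 658, 976 and 823 FPKM in ARP1 and at 483, 425, 442 and 464 FPKM in H929. IRF4 (chr6:391739-411447, plus strand) was at 430.9, 330.1, 330.8 and 713 FPKM in ARP1 and at 455, 370.4, 202 and 221 FPKM in H929. PRDM1 (chr6:106086320-106109939, plus strand) was at 159.8, 126, 139 and 158 FPKM in ARP1 and at 168, 176, 155 and 173 FPKM in H929. XBP1 was above IRF4 in 8 of 8 libraries although their ranges over libraries overlapped, and the ranges of IRF4 and PRDM1 did not overlap.

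The lymphoid regulators and cereblon followed. IKZF3 (chr17:39757715-39864188, minus strand) was at 58.8, 50.2, 58.9 and 89.8 FPKM in ARP1 and at 44.6, 32.7, 35.3 and 43.3 FPKM in H929. IKZF1 (chr7:50304068-50405101, plus strand) was at 36.2, 33.1, 41.0 and 38.0 FPKM in ARP1 and at 44.3, 44.9, 48.0 and 40.2 FPKM in H929. POU2AF1 (chr11:111352252-111455630, minus strand), a coactivator of immunoglobulin genes, was at 30.4, 40.2, 39.3 and 36.6 FPKM in ARP1 and at 18.9, 19.7, 24.6 and 25.2 FPKM in H929. These ranges overlapped from gene to gene, with IKZF3 above IKZF1 in 6 of 8 libraries and IKZF1 above POU2AF1 in 7 of 8. CRBN (chr3:3144628-3179727, minus strand) was at 13.2, 17.8, 14.7 and 22.8 FPKM in ARP1 and at 14.7, 18.7, 12.6 and 14.7 FPKM in H929, below POU2AF1 in 8 of 8 libraries.

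The regulators of the earlier B cell and germinal centre states were the lowest of the 10. MEF2B (chr19:19145568-19170289, minus strand), a MADS-box factor that acts upstream of BCL6 in germinal centre cells, was at 2.45, 2.43, 2.34 and 6.03 FPKM in ARP1 and at 2.45, 1.66, 1.99 and 5.56 FPKM in H929. BCL6 (chr3:187721377-187745727, minus strand), the repressor of the germinal centre, was at 1.31, 0.206, 0.814 and 3.09 FPKM in ARP1 and at 0.678, 0.0528, 1.01 and 2.02 FPKM in H929. PAX5 (chr9:36833275-37034185, minus strand), which fixes B cell identity, was at 2.72, 3.75, 2.41 and 1.06 FPKM in ARP1 and was listed at 0 in all 4 H929 libraries. The ranges of MEF2B and PAX5, and of PAX5 and BCL6, overlapped, and all 3 genes lay below the whole range of CRBN.

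**Figure D1:**
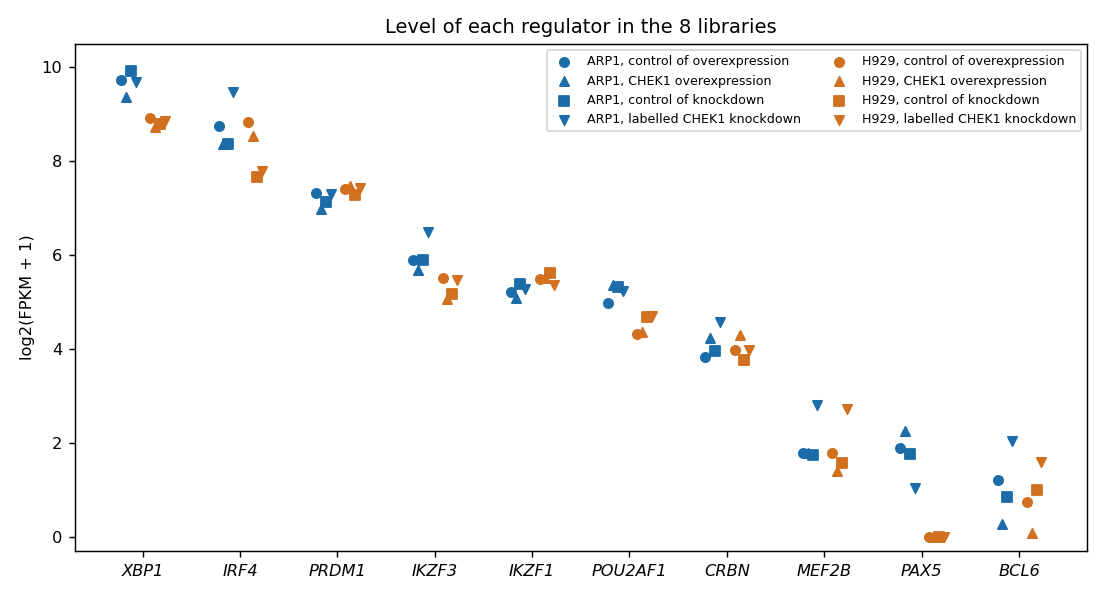
Level of each of the 10 regulators as log2(FPKM + 1) on the y axis, with 1 point per library, coloured by cell line. XBP1, IRF4 and PRDM1 stand highest, MEF2B, PAX5 and BCL6 lie lowest, and the 4 H929 points of PAX5 sit at 0.

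Among these genes only the comparison of the lines had calls, and it also had the most calls over all genes. Differences between the lines were thus common and not particular to these genes. XBP1, IKZF3, POU2AF1 and PAX5 were higher in ARP1 than in H929, with no overlap between the 4 ARP1 and the 4 H929 libraries. PAX5 reached the filter through ARP1 alone, so it had to differ and its values are a description. Of the other 9 regulators, 3 passed the test as higher and 0 as lower. In the same fit 27.1% of all tested genes were called, 13.7% as higher in ARP1 and 13.4% as lower. Of all tested genes, 27% did not overlap between the lines and 13.3% did so with ARP1 higher. At an unadjusted p under 0.05 there were 4 of the 9, with IKZF1 the addition, against 41.1% of all genes. Scaling every library to the same sum changed the split over all genes from 2036 higher and 1999 lower to 1747 higher and 2609 lower, and XBP1, IKZF3 and POU2AF1 were called higher in it too. In bulk RNA, fewer cells expressing a gene and less RNA per cell cannot be told apart.

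XBP1 averaged 826 ± 131 FPKM in ARP1 and 453 ± 25.0 FPKM in H929 (SD, n = 4 libraries each), a difference of 0.85 ± 0.10 on the log2(FPKM + 1) scale (SE, limma adjusted p = 0.0032). POU2AF1 averaged 36.6 ± 4.44 and 22.1 ± 3.26 FPKM, a difference of 0.71 ± 0.11 (SE, limma adjusted p = 0.00655). IKZF3 averaged 64.4 ± 17.4 and 39.0 ± 5.88 FPKM, a difference of 0.69 ± 0.12 (SE, limma adjusted p = 0.0095). The wide spread of IKZF3 in ARP1 came with a value of 89.8 FPKM in the library labelled knockdown, and its call was kept without that library. PAX5 averaged 2.48 ± 1.11 FPKM in ARP1 (SD, n = 4 libraries). Its difference of 1.74 on the log2(FPKM + 1) scale depends on the 1 FPKM added, being 4.57 when 0.1 was added, and is no fold because H929 was listed at 0.

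The other 6 regulators did not pass between the lines. IRF4 overlapped between them, with a difference of 0.54 ± 0.30 (SE, limma adjusted p = 0.219). IKZF1 and PRDM1 had the opposite sign to XBP1, at -0.25 ± 0.10 and -0.21 ± 0.10 (SE, limma adjusted p = 0.0985 and 0.159). CRBN, MEF2B and BCL6 differed by 0.15 to 0.24, with limma adjusted p of 0.404 to 0.493. IKZF1 was called lower in ARP1 when every library was scaled to the same sum, at -0.33 (limma adjusted p = 0.0452), and when either library labelled knockdown was left out.

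**Figure D2:**
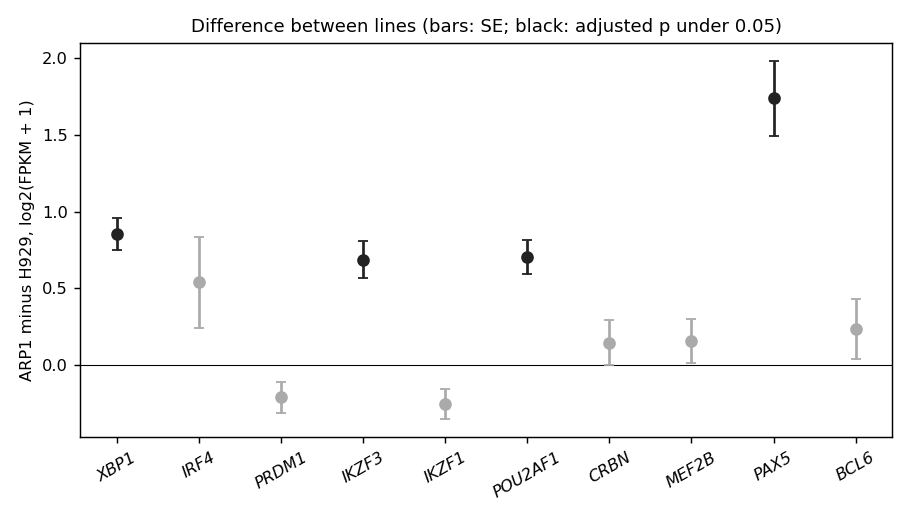
Difference of ARP1 minus H929 in log2(FPKM + 1) for each regulator, with bars of 1 SE from the limma fit over 8 libraries and black points for adjusted p under 0.05. XBP1 (0.85), POU2AF1 (0.71) and IKZF3 (0.69) lie above 0 in black, as does PAX5 (1.74), whose filter was met by ARP1 alone, so that its colour supports nothing.

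The ratio of Aiolos to Ikaros transcripts followed from these values. IKZF3 over IKZF1 was 1.62, 1.52, 1.44 and 2.36 in ARP1 and 1.01, 0.728, 0.734 and 1.08 in H929, so the lines did not overlap. CRBN over the sum of IKZF1 and IKZF3 was 0.139, 0.213, 0.147 and 0.178 in ARP1 and 0.165, 0.241, 0.152 and 0.176 in H929. In each line the overexpression library had the highest ratio of adaptor to substrates. Both ratios were formed after the levels were known and were not tested.

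IRF4 and POU2AF1 each came from 1 annotated transcript, within rounding of the table, while the others were split. Of the transcripts of the 10 genes, 29 were tested, and 6 were higher in ARP1 and 0 lower, against 6.5% of all tested transcripts called in either direction. These 6 belong to genes already called above, so they restate those calls and add no independent support. They were XBP1-201 (0.79, limma adjusted p = 0.0221), XBP1-202 (1.22, 0.0163), IKZF3-203 (0.74, 0.0392), IKZF3-216 (1.11, 0.0416), PAX5-201 (1.40, 0.0346) and POU2AF1-201 (0.71, 0.0296). PAX5-201 reached the filter through ARP1 alone, and its call supports nothing. The calls rest on all 8 libraries. Leaving out the ARP1 or H929 library labelled knockdown, or the H929 overexpression library, left 1 call. Leaving out the ARP1 overexpression library or any of the 4 controls left 0.

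XBP1-201, which keeps the 26 bases shown above and encodes 261 residues, was at 688, 565, 832 and 663 FPKM in ARP1 and at 415, 370.1, 382 and 404 FPKM in H929. XBP1-202, which lacks them and encodes 376 residues, was at 144, 78.3, 113 and 137 FPKM in ARP1 and at 58.6, 45.8, 46.1 and 46.2 FPKM in H929. Transcripts with either form were higher in ARP1 in every library. The share of XBP1 FPKM without the intron was 17.3%, 12.2%, 11.9% and 17.1% in ARP1 and 12.3%, 11.1%, 10.7% and 10.2% in H929. These averaged 14.6% ± 2.96 and 11.1% ± 0.878 (SD, n = 4 libraries each). The difference of 3.54 percentage points gave p = 0.0857 in an exact two-sided permutation test, whose smallest possible p was 0.0286, and the lines overlapped. The share was higher in ARP1 than in H929 in 4 of 4 genotypes, a pairing which that test does not use. With FPKM weighted by transcript length the shares averaged 9.61% and 7.16%. XBP1-202 is annotated without untranslated ends, and the forms differ by 26 bases, so the division rests on the authors' assignment of fragments to transcripts.

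PRDM1-203, 825 residues from the upstream start, was at 133, 80.8, 91.4 and 94.7 FPKM in ARP1 and at 106, 81.7, 101 and 112 FPKM in H929. PRDM1-201, 691 residues from the internal start, the form known as Blimp-1 beta, was at 17.9, 39.4, 41.6 and 56.7 FPKM in ARP1 and at 53.2, 81.4, 48.3 and 50.8 FPKM in H929. The internal start thus made 11.2%, 31.2%, 29.8% and 36.0% of PRDM1 in ARP1 and 31.6%, 46.2%, 31.1% and 29.4% in H929. In both lines the share was higher in the overexpression library than in its control, and in ARP1 that control was the library apart, since the overexpression library at 31.2% was close to the control of knockdown at 29.8%. This pattern was chosen after its values were seen and was not tested.

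Full-length IKZF3 (IKZF3-203, 509 residues) made 67.4% to 81.4% of its gene in the 8 libraries. Full-length Ikaros (IKZF1-201, 519 residues) made 28.4% to 51.6%, with its lowest share in the ARP1 control of overexpression, and IKZF1-210 (477 residues) made 22.2% to 31.5%. CRBN-201 (442 residues) made 39.8% to 67.0% of its gene, and CRBN-215, annotated with 490 residues, made 15.0% to 32.6%. PAX5-201 was the leading form in the 4 ARP1 libraries, at 2.07, 2.27, 1.61 and 0.861 FPKM.

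**Figure D3:**
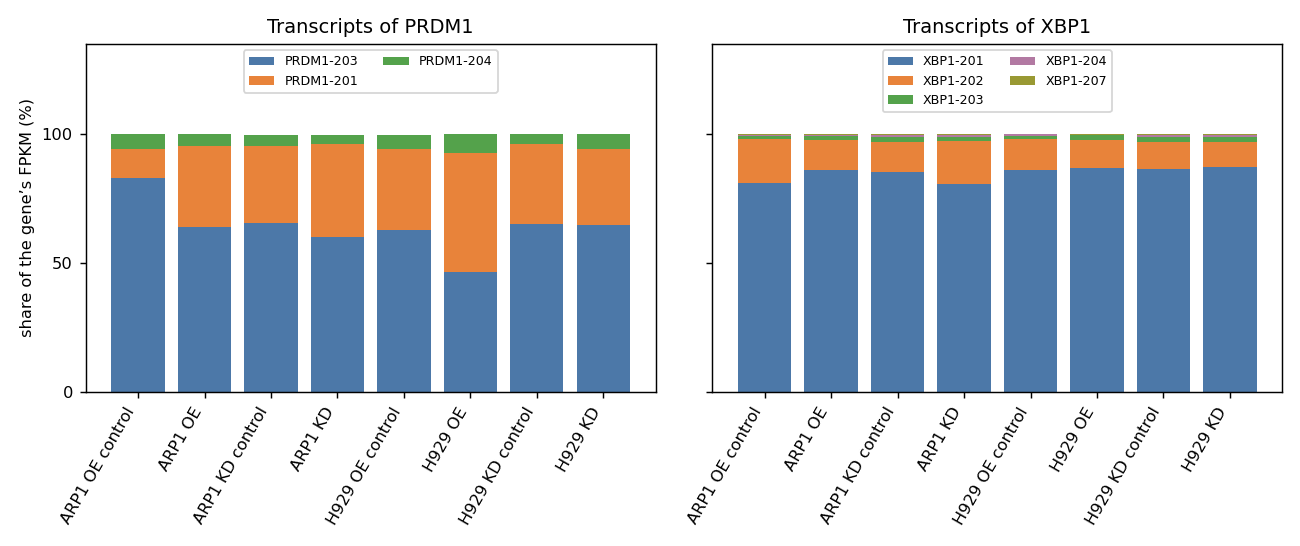
Share of a gene's FPKM, in percent, carried by each main transcript of XBP1 and PRDM1 in the 8 libraries (OE, overexpression; KD, labelled knockdown). XBP1-202 keeps a small share in each library, and PRDM1-201 ranges from 11.2% in the ARP1 control of overexpression to 46.2% in the H929 overexpression library.

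With CHEK1 overexpression, none of the 10 regulators passed the test against its control. The limma fit called 0 of 10, against 0.00671% of all tested genes. At an unadjusted p under 0.05 it had 1 of the 10, BCL6, against 4.45% of all genes. BCL6 went from 1.31 to 0.206 FPKM in ARP1 and from 0.678 to 0.0528 FPKM in H929, a difference of -0.81 ± 0.28 (SE, limma adjusted p = 0.994). In ARP1 this rests on BCL6-204, a short incomplete transcript model described below with the knockdown libraries. Without it the ARP1 values were 0.264 and 0.206 FPKM, and the log2 ratio was -0.07 in place of -0.94, while that of H929 stayed at -0.67. In H929 the fall rests mostly on BCL6-205, another model with an incomplete end. It held 0.442 of the 0.678 FPKM of the control, or 65.3%, and was at 0 in the overexpression library. XBP1, IKZF3 and BCL6 had their lowest value of the line in the overexpression library in both lines, 3 of 10 genes against 11.3% of all genes. XBP1 differed from its control by -0.28 ± 0.15 and IKZF3 by -0.33 ± 0.17 (SE, limma adjusted p = 0.994 for both). CRBN and POU2AF1 had the opposite sign in both lines, with differences of 0.36 ± 0.21 and 0.23 ± 0.16 (SE, limma adjusted p = 0.994 for both). On the scale of FPKM + 1, which shrinks the ratios of low genes such as BCL6, none of the 10 moved 2-fold in either line, where 3.29% of genes in ARP1 and 2.73% in H929 did. At 1.5-fold of FPKM + 1 there was 1 of the 10 in each line, BCL6, against 11.5% and 8.93% of genes. Without BCL6-204 it did not reach this in ARP1, and in H929 it rested mostly on BCL6-205. The sign was shared by the lines in 7 of the 10, against 58.1% of all genes.

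In the libraries labelled knockdown, MEF2B and BCL6 were the highest of their line in both lines, 2 of 10 genes against 11.8% of all. The limma fit called 0 of 10, against 0.0134% of all tested genes. At an unadjusted p under 0.05 it had 3 of the 10, MEF2B, BCL6 and IKZF3, against 9.14% of all genes. MEF2B differed from its control by 1.10 ± 0.20 (SE, limma adjusted p = 0.440), with log2 ratios of 1.07 in ARP1 and 1.14 in H929. BCL6 differed by 0.88 ± 0.28 and IKZF3 by 0.45 ± 0.17 (SE, limma adjusted p = 0.524 and 0.538). Since CHEK1 goes against the knockdown label in H929, these values compare libraries by label.

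Both MEF2B and BCL6 carry a limit of annotation. MEF2B lies within the read-through gene BORCS8-MEF2B on the same strand, which was at 2.28, 1.80, 1.06 and 2.04 FPKM in ARP1 and at 1.26, 1.24, 2.69 and 1.11 FPKM in H929. Summed with it, the log2 ratio to the control of knockdown was 1.04 in ARP1 and 0.44 in H929. The MEF2B transcript of highest mean FPKM, MEF2B-204, carried 49.3% to 87.0% of the gene. This transcript was at 1.95, 1.20, 1.44 and 5.25 FPKM in ARP1 and at 1.39, 1.09, 1.18 and 3.36 FPKM in H929. In both lines it was highest in the library labelled knockdown. Of BCL6, up to 79.9% of the FPKM was carried by BCL6-204, a model of 454 bases with an incomplete end. Without it BCL6 in ARP1 had 0.692 FPKM where knockdown was labelled against 0.814 in the control, so the order in ARP1 turned. In H929 it had 0.566 against 0.307 FPKM, but 0.278 of the 0.566 lay on BCL6-205. That model is also incomplete at its end and was at 0 in the control. Nearly all the rest there was BCL6-211 at 0.288 FPKM, against BCL6-202 at 0.307 FPKM in the control. Without both incomplete models no rise was left in H929. In neither line was BCL6 without BCL6-204 highest where knockdown was labelled.

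IRF4 was high in 1 of these libraries. In ARP1 the library labelled knockdown had 713 FPKM, the highest of the 8, against 330.8 in its control, a log2 ratio of 1.11. In H929 it was at 221 against 202 FPKM, a log2 ratio of 0.13. The difference over both lines was 0.62 ± 0.42 (SE, limma adjusted p = 0.631), and it was -0.15 without the ARP1 library labelled knockdown. The difference of this effect between the lines, with both controls of a line pooled, was 1.37 ± 0.70 (SE, limma adjusted p = 0.669). In H929 the controls themselves differed, at 455 and 202 FPKM, a log2 ratio of 1.17, and 4.35% of genes differed 2-fold between those controls. In ARP1 none of the 10 did, against 5.13% of genes. Within ARP1, IRF4, MEF2B and BCL6 were at least 2-fold higher on the scale of FPKM + 1 in the library labelled knockdown, 3 of 10 genes against 8.26% of all genes in either direction. BCL6 counts there through BCL6-204, without which it had 0.692 FPKM against 0.814 in the control. In H929 MEF2B alone reached 2-fold on that scale, 1 of 10 against 3.6%, with BCL6 at 2.02 against 1.01 FPKM having a log2 ratio of 0.59. At 1.5-fold, in either direction, there were 6 of the 10 in ARP1, against 25.9% of genes, and 2 in H929, against 9.49%. BCL6, with the limit given above, was among them in each line. The lines shared the sign in 7 of the 10, against 56.1% of all genes.

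**Figure D4:**
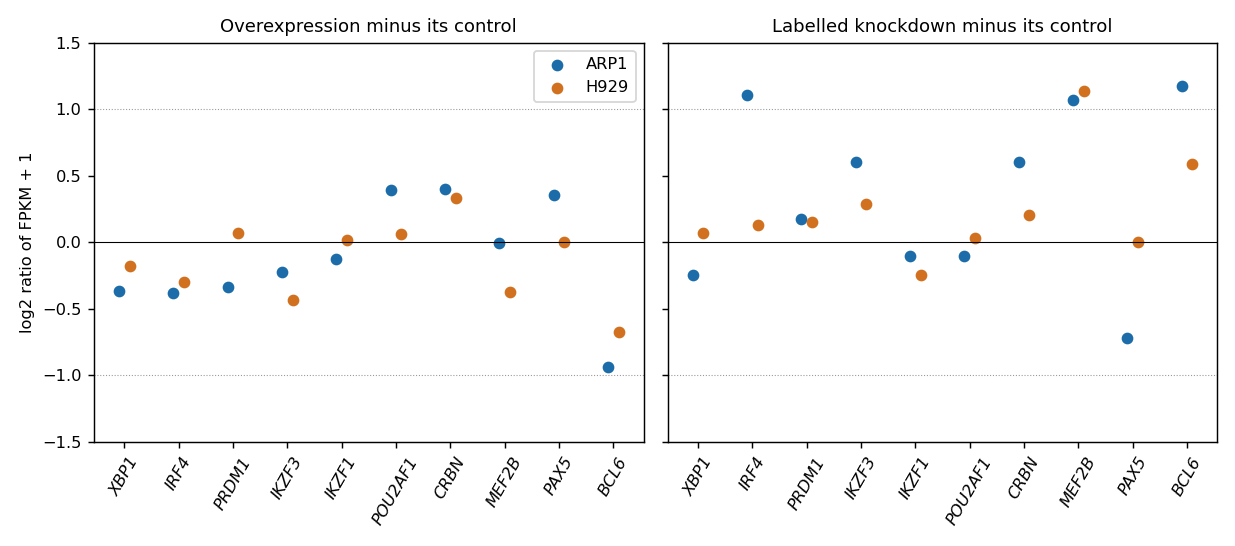
Log2 ratio of FPKM + 1 within each line for overexpression against its control and for the library labelled knockdown against its control, with 1 point per line and gene. MEF2B lies near 1.1 in both lines, while IRF4 is at 1.11 in ARP1 and 0.13 in H929.

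The controls against each other gave 0 of 10 calls in limma, against 0.0537% of all genes, and 0 of 10 at an unadjusted p under 0.05, against 10.7%. IRF4 was higher in the control of overexpression in both lines, by 0.77 ± 0.42 (SE, limma adjusted p = 0.547), and POU2AF1 was lower in it in both lines, at -0.36 ± 0.16 (SE, limma adjusted p = 0.477). This comparison shares its libraries with the genotype comparisons above. No regulator passed the test of a genotype effect that differs between the lines, for overexpression or knockdown, adjusted or at an unadjusted p under 0.05, where 0 genes in all passed adjusted and 1.87% and 7.79% passed unadjusted.

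**Figure D5:**
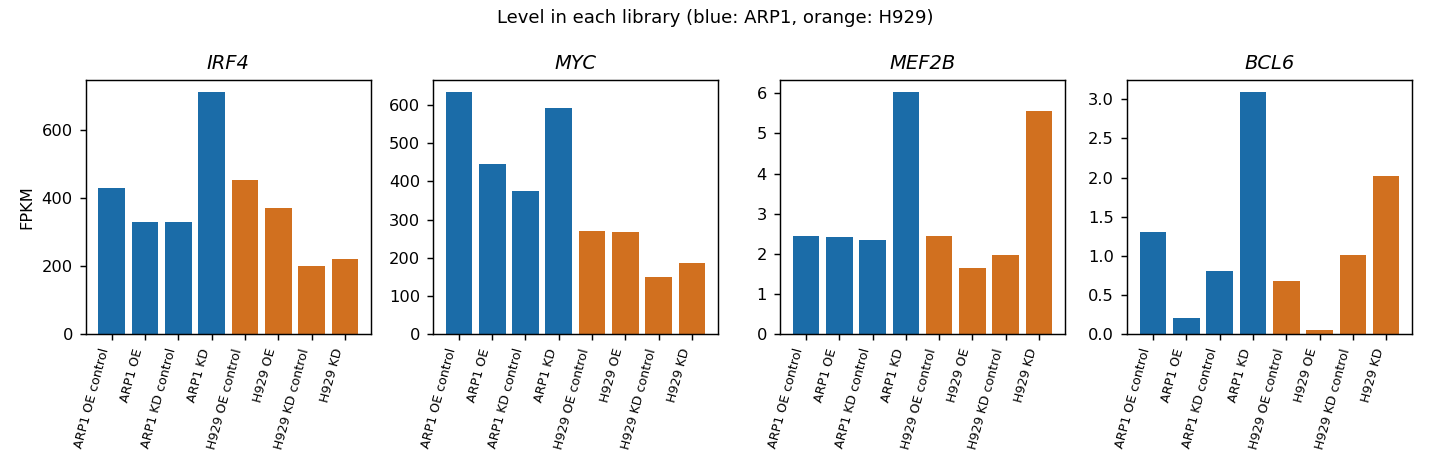
FPKM of IRF4, MYC, MEF2B and BCL6 in each of the 8 libraries, as bars from 0 (OE, overexpression; KD, labelled knockdown). IRF4 peaks in ARP1 alone (713 FPKM, labelled knockdown), while MEF2B is highest in the library labelled knockdown of both lines. BCL6-204, a model with an incomplete end, carries most of BCL6 in the libraries labelled knockdown.

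The genes around these regulators were taken from 10 lists chosen for their roles. Earlier results of these data were known when the lists were chosen, so the counts below are a description. Of 24 targets and partners of the IRE1 and XBP1 branch, 2 were higher and 9 lower in ARP1, with a median difference of -0.19 against 0.00135 over all genes, of which 13.7% were higher and 13.4% lower. The 2 higher were ERN1 and HERPUD1, a membrane protein of degradation at the endoplasmic reticulum. The lower ones included DNAJC3, a cochaperone, at 27.9 to 37.0 FPKM in ARP1 and 50.6 to 68.2 FPKM in H929, a difference of -0.80 ± 0.10 (SE, limma adjusted p = 0.00352). SEC24D, a coat protein of secretory vesicles, was at -0.73 ± 0.13 (SE, limma adjusted p = 0.00854). So most called genes of the branch had the opposite sign to XBP1 itself. ERN1 was at 20.02, 15.9, 19.2 and 83.3 FPKM in ARP1 and at 10.9, 11.2, 11.1 and 18.2 FPKM in H929, and without the ARP1 library labelled knockdown the counts were 2 and 7.

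Of 17 tested genes of plasma cells, 9 were higher in ARP1 and 0 lower, with a median of 0.51, against the same 13.7% and 13.4% of all genes, and 8 were higher without the ARP1 library labelled knockdown. SLAMF7, a surface receptor, was at 13.3 to 27.4 FPKM in ARP1 and 0.0778 to 0.201 FPKM in H929. TNFRSF17, the receptor BCMA, was at 76.2, 88.6, 68.4 and 195 FPKM in ARP1 and at 43.6, 45.6, 23.0 and 28.8 FPKM in H929, with no overlap. GPRC5D, an orphan receptor, was at 90.4, 296, 149 and 289 FPKM in ARP1 and at 63.3, 164, 33.0 and 26.9 FPKM in H929, and these overlapped.

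Of 27 tested other factors of B cells and plasma cells, 8 were higher in ARP1 and 1 lower, against 13.7% and 13.4% of all genes, with a median of 0.13. POU2F2, the OCT2 partner of POU2AF1, was at 6.07, 2.97, 10.9 and 6.68 FPKM in ARP1 and at 0.869, 0.527, 3.003 and 1.20 FPKM in H929. ETS1 was at 70.7 to 100.1 FPKM in ARP1 and 26.1 to 29.5 FPKM in H929. MYC was at 634, 446, 375 and 591 FPKM in ARP1 and at 270.4, 267, 149 and 188 FPKM in H929. IRF8, which acts in germinal centre B cells, was at 0.499 to 2.06 FPKM in ARP1 and was listed at 0 in the 4 H929 libraries, as PAX5 was. SPI1 was listed at 0 in all 8 libraries.

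Beside PAX5, the 16 B cell identity genes were low. In all 8 libraries 10 of them stayed under 1 FPKM, the 4 ARP1 libraries summed to 25.2 to 51.3 FPKM over the list and those of H929 to 16.2 to 22.4, and most of it was CIITA, the activator of MHC class II genes. Of the 6 tested, 2 were higher in ARP1 and 0 lower, against 13.7% and 13.4% of all genes. BANK1, BLNK and CD79A, 3 of the 6, reached the filter through ARP1 alone, so the call of CD79A supports nothing. CD79A, a chain of the B cell receptor, was at 3.56, 0.929, 2.08 and 2.35 FPKM in ARP1 and at 0.0605 to 0.777 FPKM in H929. CIITA was at 20.8 to 36.2 and 13.0 to 18.9 FPKM. Of the markers of other cells, GNLY, PDGFRB and KRT8 were lower in ARP1 and CD33 was higher, none above 14.2 FPKM. Each was under 1 FPKM throughout the line where it was lower and reached the filter through the other line alone. These 4 calls therefore support nothing, and the part of such markers in these values was not tested.

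Of 18 genes of the cereblon ligase and its substrates, 2 were higher in ARP1 (GLUL and UBE2G1) and 1 lower (CUL4A), with a median of 0.03. Of all genes, 13.7% were higher and 13.4% lower. GLUL, glutamine synthetase, which cereblon can mark for degradation, was at 12.8 to 19.3 FPKM in ARP1 and at most 0.111 FPKM in H929. UBE2G1, a ubiquitin-conjugating enzyme, was at 54.5 to 72.03 and 40.9 to 44.4 FPKM. Of 15 corepressors and partners of Blimp-1, 0 were higher and 1, EZH2, was lower, against the same shares of all genes. EZH2 was at 53.1 to 70.9 FPKM in ARP1 and 82.1 to 104.9 FPKM in H929. In the comparisons of overexpression, of knockdown and of the controls, limma called 0 genes of any list. At an unadjusted p under 0.05, where 4.45%, 9.14% and 10.7% of all genes lay in these comparisons, the IRE1 and XBP1 branch had 0, 4 and 6 of 24 genes in them, the cereblon list 2, 1 and 1 of 18, the plasma cell genes 3, 2 and 4 of 17, the other factors 1, 1 and 4 of 27, and the corepressors and B cell identity genes 0 in each. GLUL, IRF8, SLAMF7 and CD79A, like PAX5, were under 1 FPKM throughout H929 and reached the filter through ARP1 alone. The same held for FCRL5 of the plasma cell genes and BANK1 and BLNK of the B cell identity genes, which were not called. Without all of these, the counts higher in ARP1 were 1 of 17 for the cereblon list and 7 of 26 for the other factors. They were 8 of 15 for the plasma cell genes and 1 of 3 for the B cell identity genes. The share over all genes, 13.7%, still includes genes that met the filter through 1 line.

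Genes with the most similar pattern were looked for among 9040 protein-coding genes, by Pearson's r over the 8 libraries after each line's mean was taken away. For IRF4 these were ERC1 (0.989), SMIM27 (0.982) and ATXN1L (0.980), and ERC1 too peaked, with 148 FPKM, in the ARP1 library labelled knockdown. For MEF2B they were TCTEX1D2 (0.993), ATF3 (0.981) and LONP1 (0.980), and ATF3, a stress-induced factor, was at 28.9 and 15.2 FPKM in the libraries labelled knockdown against 8.37 and 3.70 in their controls. For XBP1 the closest was CEP41 (0.957), for IKZF3 PCMTD2 (0.980), for CRBN RASA2 (0.976), for POU2AF1 CDC27 (0.984), for IKZF1 CFD (0.989), for PRDM1 HIST2H2AB (0.959) and for BCL6 PKD1 (0.992). For PAX5 it was DHX15 (0.994), with the H929 libraries at 0 adding nothing. With 8 points that share depth and scaling, and so many genes searched, these values describe the libraries and carry no test.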

How the data were processed

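RNA was measured in 8 libraries of ARP1 and H929. The authors deposited FPKM per transcript; per the submitters' processing notes the tools were Bowtie 0.12.2, HISAT2 2.0 and StringTie 1.3.0. The same notes list the mouse build mm8, although the transcript identifiers are human, and the build actually used was not stated. The labels' extraction text mentions adipose, which does not match myeloma lines. Of 88209 transcripts, 87707 matched GENCODE 29 (GRCh38) and were summed per gene, and 502 were left out. Genes reaching 1 FPKM in 2 or more libraries were taken as log2(FPKM + 1) and fitted in limma 3.58.1 (R 4.3.3) with genotype and line as terms and a variance trend, 3 residual and 3.74 prior degrees of freedom. Tests were two-sided, with Benjamini-Hochberg adjustment over all 14905 genes and a threshold of 0.05. A line by genotype fit pooled the controls of a line. The fit was tested on simulated data. FPKM carries no counts, so precision rests on the spread between libraries. Strand was not stated, so genes overlapping on the opposite strand (as TRNT1 with CRBN, or ATG5 with PRDM1) may share reads.

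The line was a block because the labels give the same cell line in each genotype; deviations of same-line libraries correlated at 0.520 to 0.668 over 6 pairs of genotypes. The members and lists were chosen with earlier results of these data known. All members were named, with transcripts by mean FPKM (up to 4 per gene), up to 4 genes per list and comparison by size among those called, or else by size with the same sign in each pair, and the 3 genes of highest r. Alternatives were other pseudocounts, filters, scalings, variance models, transcript sums, controls and blocks, and each library left out. Some genes of the lists are not reported here by name.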

Additional observations from a re-analysis of the deposited data

Results flagged for a closer look

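MEF2B in the ARP1 library labelled knockdown lay far above the other 3 libraries of that line. Its gap to the nearest of them was 0.959 of the whole range of log2(FPKM + 1), above Dixon's 95% critical value for 4 values. It stood at 6.03 FPKM against 2.34 to 2.45 FPKM. In all, 20 groups of 4 values were examined, the libraries of a line differ in genotype and are no replicates, and chance alone passes this limit in about 1 of 20 groups.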

How the results depend on the processing

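XBP1, POU2AF1, IKZF3 and, by way of the filter, PAX5 were called higher in ARP1 under every alternative run, except that a filter at 5 FPKM tested 8 regulators, without PAX5 and BCL6, and called 3. No alternative called a regulator for overexpression, knockdown or the controls. Without the replicate block, these counts stayed at 0, and over all genes the calls were 1, 0 and 2 in place of 1, 2 and 8, so the block changed no call of a regulator. Over all genes, 4035 differed between the lines, and 1830 to 4039 did with 1 library left out. Without the H929 library labelled knockdown, the knockdown comparison rests on the ARP1 library alone, so its calls over all genes are not counted here. Member transcripts called fell from 6 to 0 to 1 with any library left out. At 1.5-fold in place of 2-fold, counts within a line went from 0 to 1 and from 0 to 1 for overexpression in ARP1 and H929, and from 3 to 6 and from 1 to 2 for knockdown. The values that changed sign were all uncalled. Against pooled controls, IRF4 under overexpression was 0.048 and POU2AF1 under knockdown 0.15. Against the other control, overexpression gave IRF4 0.44, PRDM1 0.019 and POU2AF1 -0.14, and knockdown gave IRF4 -0.16 and POU2AF1 0.33. Quantile scaling gave POU2AF1 0.0029 under knockdown, and BCL6 without BCL6-204 was -0.10 in ARP1. With 1 library left out, the line difference of CRBN ran from -0.0031 to 0.24. Overexpression ran from -0.81 to 0.13 for IRF4, -0.31 to 0.043 for PRDM1, -0.17 to 0.064 for IKZF1 and -0.16 to 0.52 for PAX5. Knockdown ran from -0.28 to 0.10 for XBP1, -0.15 to 1.38 for IRF4, -0.16 to 0.092 for POU2AF1 and -0.82 to 0.10 for PAX5. Apart from fewer libraries or genes tested, the cause was not tested. Depth is unknown, and IRF4 had the widest standard errors of the 10 (0.30 between the lines, 0.42 for a genotype).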
